A study of Mus musculus with 6 samples.

Results

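Socs1, Socs2, Socs3, Cish and Pim1 are genes that cytokine receptors switch on through STAT transcription factors. They were taken by name, by a rule that uses no measured value although earlier results of these data were known, and make up 5 of the 34186 endogenous genes in the count matrices. Their identifiers in the files are ENSMUSG00000038037 (Socs1), ENSMUSG00000020027 (Socs2), ENSMUSG00000053113 (Socs3), ENSMUSG00000032578 (Cish) and ENSMUSG00000024014 (Pim1). SOCS proteins and CIS, the product of Cish, carry an SH2 domain that binds phosphorylated receptors or kinases and a SOCS box that recruits a ubiquitin ligase, so that a cell that has answered a cytokine damps the next signal. SOCS1 and SOCS3 can also block JAK kinases directly, and SOCS3 is a standard target of STAT3 downstream of IL-10 and of gp130 cytokines. Cish and Socs2 are standard targets of STAT5 downstream of IL-2, GM-CSF or growth hormone, and Pim1 encodes a serine/threonine kinase that is induced by STAT3, STAT5 and NF-kB and that favors survival.

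The cells were CD45+ cells isolated with beads from subcutaneous tumors of 6694c2vTRP1, a mouse pancreatic ductal adenocarcinoma line, of which 250000 cells had been injected into C57BL/6 mice. Mice received 2 doses, every other day from day 8, of PBS, of 26 µg mono-IL10 or of 30.6 µg IL10/2-Trikine. Mono-IL10 is a monomeric form of human IL-10, and IL10/2-Trikine joins it to a binder that also recruits the IL-2 receptor beta chain. Tumors were taken on day 14, days after the last dose. The question put to these genes was how their RNA differed between a cytokine that mainly activates STAT3 and the same cytokine with STAT5 added, in lymphocytes and in myeloid cells. The 5 mice of each treatment carried separate hashtags but shared 1 library, so library and treatment cannot be told apart. The 3 libraries held 515236552, 458860129 and 364814102 UMIs (molecules counted once by their barcode) for PBS, mono-IL10 and IL10/2-Trikine, and the barcodes that pairs of libraries shared after filtering numbered 250, 441 and 311.

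Despite the CD45 selection, cells resembling tumor epithelium were the largest named class in every library, at 36.1%, 36.2% and 56% of cells after filtering in PBS, mono-IL10 and IL10/2-Trikine, and fibroblast-like and endothelial-like cells were present too. T and NK cells were taken from the deposited annotation, which covers these cells only. Macrophages and dendritic cells were rebuilt here from marker genes. The macrophage class comprised 6 clusters with 5167, 4620 and 3500 cells in PBS, mono-IL10 and IL10/2-Trikine, and all 11 of its markers were detected at a summed 26774 to 34566 CPM in single mice (CPM being UMIs per 1000000 UMIs summed over the cells of a mouse), against 7.66 to 46.1 for the 7 T cell markers. A further 16 clusters resembled macrophages most but did not pass the naming rules, and they held 61.2%, 51.6% and 64.4% of all macrophage-most cells in the 3 groups. Cells of IL10/2-Trikine macrophages were shallower, with median UMIs per cell of 2428 to 2919 by mouse against 4418.5 to 5873 for PBS and 4688 to 6936 for mono-IL10. The make-up of the lymphocytes also differed. NK cells were 28.4%, 29.8% and 54.8% of T and NK cells in the 3 groups in that order, and of the T cells naive_CD8T made up 12.4%, 27.1% and 1.1%, Treg 17.3%, 11.2% and 11%, and Cycling_T 17.3%, 22.2% and 51.9%. The annotated T cells of IL10/2-Trikine mice carried less of the T cell markers (1719 to 2299 summed CPM, against 2680 to 3546 in PBS) and more of the NK cell markers (1800 to 2941 against 401 to 747), whereas those of mono-IL10 mice carried more of both (3795 to 4192 and 739 to 1367).

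The upstream sequences of Socs3 and Cish are shown because these genes gave the clearest differences in myeloid cells and in T cells, and because their windows differ in the letters TTCNNNGAA, the palindromic core that STAT proteins bind. Both windows cover the 250 bases before the annotated start, from RefSeq on GRCm38.p6, whereas the count files were made on GRCm39. Socs3 lies on chr11:117969367-117969616, minus strand, and Cish on chr9:107296409-107296658, plus strand. Capitals mark the motif.
Socs3: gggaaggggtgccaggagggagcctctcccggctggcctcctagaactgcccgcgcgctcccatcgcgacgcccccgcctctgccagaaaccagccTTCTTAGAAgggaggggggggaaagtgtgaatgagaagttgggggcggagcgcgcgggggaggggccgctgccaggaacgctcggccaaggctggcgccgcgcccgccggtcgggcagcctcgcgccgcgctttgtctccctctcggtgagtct
Cish: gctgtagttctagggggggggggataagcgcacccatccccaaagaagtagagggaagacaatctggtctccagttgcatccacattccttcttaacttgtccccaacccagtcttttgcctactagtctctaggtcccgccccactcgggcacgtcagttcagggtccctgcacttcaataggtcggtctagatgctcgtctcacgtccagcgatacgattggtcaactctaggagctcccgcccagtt
The Socs3 window held 1 match, whose first base lies 154 bases before the start. The Cish window, the Socs1 window and the windows of both Pim1 starts held none, which says only that these letters are not in these windows. Socs2 was not matched in the table. Of 32851 windows of the same length, 7.02% held at least 1 match.

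Each gene had its own order of cell types, described here in PBS mice in CPM (mean ± SD, n = 5). Socs3 was highest in macrophages at 323 ± 28.2, lower in dendritic cells at 166 ± 23.5, and lowest in NK cells at 66.4 ± 34.8 and T cells at 63.7 ± 28.6. Macrophages, dendritic cells and lymphocytes did not overlap, and NK and T cells did. Pim1 was about as high in macrophages (627 ± 42.8) as in dendritic cells (622 ± 22.8), whose mice overlapped. T cells (361 ± 83.4) lay below both without overlap, and above NK cells (217 ± 106) in the mean with overlapping mice. Cish ran the other way, from 127 ± 29.8 in T cells through 81.5 ± 31.5 in NK cells and 74.9 ± 4.53 in dendritic cells to 45.2 ± 5.21 in macrophages, and only the last step, between dendritic cells and macrophages, separated the mice. Socs1, the inhibitor best known for interferon signaling, had 78.8 ± 15.0 in T cells, 48.9 ± 29.98 in NK cells, 27.0 ± 7.09 in dendritic cells and 12.7 ± 4.21 in macrophages, with overlap at every step. Socs2 had 108 ± 22.3 in dendritic cells, 72.5 ± 20.9 in T cells, 65.2 ± 10.7 in macrophages and 8.50 ± 15.1 in NK cells, and of the neighbors in this order only macrophages and NK cells were separated.

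**Figure D1:**
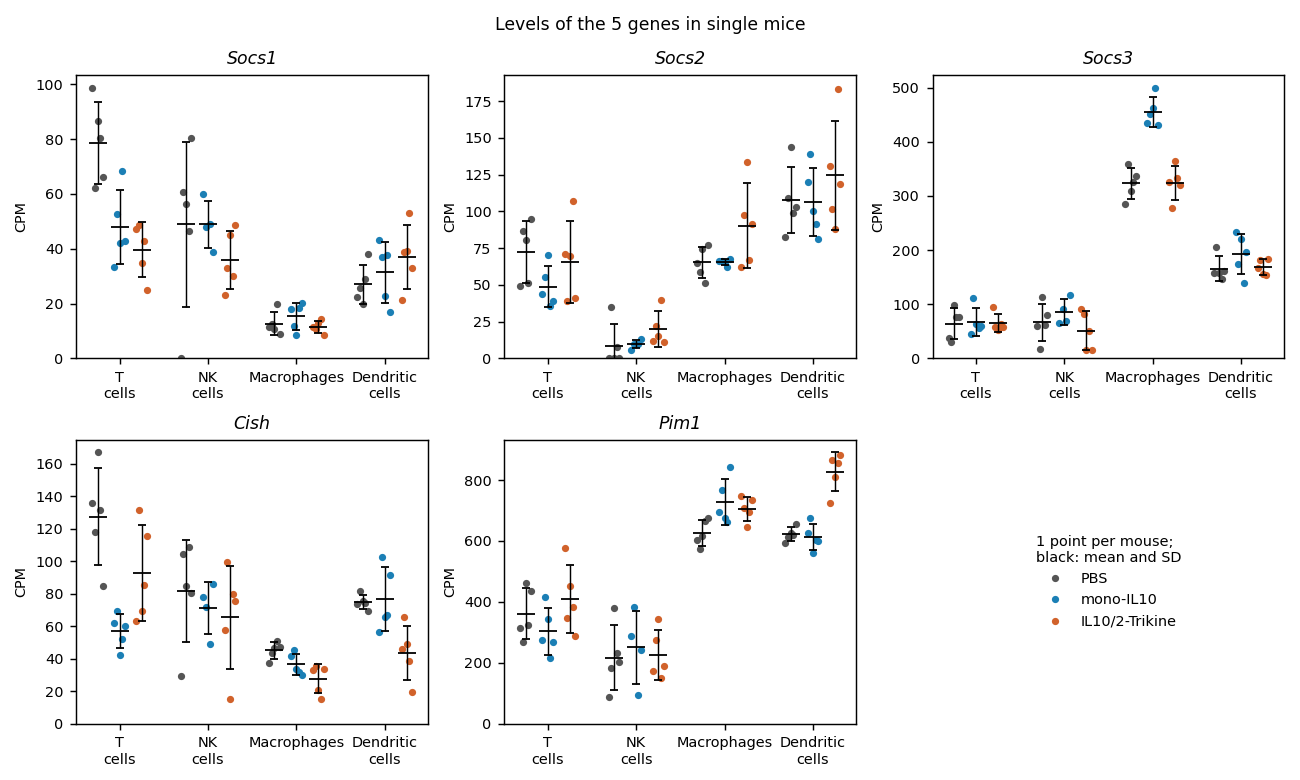
CPM (vertical axes, from 0) of the 5 genes in T cells, NK cells, macrophages and dendritic cells, with 1 point per mouse, colored by treatment, and black bars for the mean and SD. The 5 mono-IL10 points for Socs3 in macrophages sit between 430 and 500.1, above all PBS and IL10/2-Trikine points, and the mono-IL10 points for Cish in T cells sit between 42.1 and 69.2, below all PBS points.

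Free RNA in droplets was gauged by genes that the cell type should lack. A summed list of 8 macrophage genes reached 1.54% to 1.98% of its macrophage level in T cells, whereas Socs3 reached 14.7% to 20.2% of its own. In macrophages the summed list of 8 T and NK genes reached 0.263% to 0.890% of its lymphocyte level, whereas Cish reached 35.4% to 60.1%.

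Socs3 rose in macrophages with mono-IL10, and summed over the class it did not rise detectably with IL10/2-Trikine. In PBS mice its level was 285, 360, 310, 326 and 337 CPM, in mono-IL10 mice 435, 451, 462, 500.1 and 430, and in IL10/2-Trikine mice 326, 277, 365, 332 and 320. All mono-IL10 mice exceeded the highest PBS and IL10/2-Trikine mice, and the PBS and IL10/2-Trikine values overlapped. The edgeR log2 fold change of mono-IL10 over PBS was 0.59 (SE 0.08, adjusted p = 4.4e-06), a ratio of means of 1.41. IL10/2-Trikine lay below mono-IL10 by a log2 change of -0.58 (SE 0.08, adjusted p = 4.5e-05) and differed from PBS by 0.01 (SE 0.08, adjusted p = 0.976). Both calls stood in all 10 alternative settings and in all 15 fits that left out a mouse, with log2 values of 0.54 to 0.69 against PBS and -0.80 to -0.54 between the cytokines over the settings.

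The difference was spread over most of the macrophage class. The 6 clusters were led by different genes, and the largest was cluster 44 (Cx3cr1, Hpgds) in PBS, cluster 13 (Cd163, Nrg1) in mono-IL10 and cluster 10 (Ccl12, Fcrls, with the heat shock gene Hspa1a among its 10 leading genes) in IL10/2-Trikine, so a sum over clusters could move with their shares. Within clusters, Socs3 was higher in the mono-IL10 mean in 6 of 6 and rose past the threshold in 5. The log2 change was 0.89 (SE 0.13, adjusted p = 1.6e-05) in cluster 13 and 0.74 (SE 0.10, adjusted p = 8.2e-07) in cluster 56, which is led by Il10 and carried the highest Socs3. It was 0.64 (SE 0.11, adjusted p = 5.4e-05) in cluster 44, 0.60 (SE 0.09, adjusted p = 1.4e-05) in cluster 6, which is led by the class II genes H2-Eb1 and H2-Aa, and 0.51 (SE 0.13, adjusted p = 0.0065) in cluster 10. Cluster 50, led by Ccl24 and Arg1, stood apart at 0.04 (SE 0.10, adjusted p = 0.900), and there Socs3 fell with IL10/2-Trikine against PBS by 0.38 on the log2 scale (SE 0.11, adjusted p = 0.031). In that comparison the IL10/2-Trikine mean was higher than PBS in 4 clusters and lower in 2, clusters 44 and 50. Outside cluster 50 the edgeR log2 values were positive, from 0.07 in cluster 56 to 0.37 (adjusted p = 0.221) in cluster 13. The value was 0.29 (adjusted p = 0.111) in cluster 6, 0.14 in cluster 10 and 0.10 (adjusted p = 0.878) in cluster 44. None of these passed the threshold. Against mono-IL10, the IL10/2-Trikine mean was lower in 6 of 6 clusters and past the threshold in 3 (clusters 13, 50 and 56). Cluster 44 rested on 3 IL10/2-Trikine mice and cluster 56 on 4. Across all genes tested within clusters, mono-IL10 against PBS called 9.94% in cluster 6, 7.35% in cluster 10, 6.54% in cluster 13, 7.92% in cluster 44, 8.44% in cluster 50 and 8.36% in cluster 56. In the same order of clusters, IL10/2-Trikine called 4.36%, 6.35%, 3.68%, 1.12%, 5.41% and 1.84% against PBS, and 0.386%, 1.77%, 1.27%, 0.136%, 3.99% and 0.788% against mono-IL10.

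**Figure D2:**
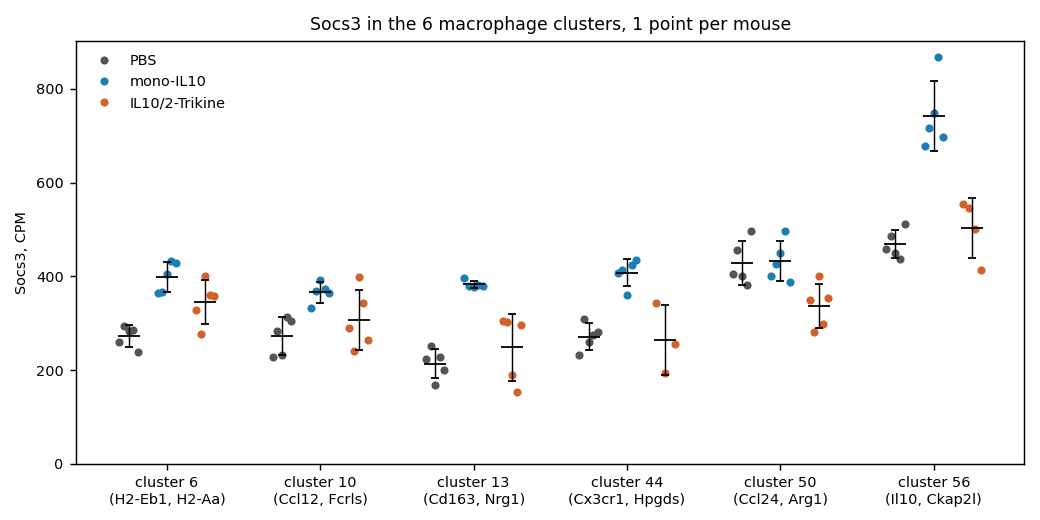
Socs3 in CPM (vertical axis, from 0) in each of the 6 macrophage clusters (horizontal axis, with 2 leading genes of each), with 1 point per mouse that had at least 10 cells there, and black bars for the mean and SD. The mono-IL10 points lie above all PBS points in 5 of the 6 clusters and among them in cluster 50.

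Pim1 also rose in macrophages with mono-IL10, by less. The PBS mice had 573 to 674 CPM (median 618), the mono-IL10 mice 662 to 842 (median 695) and the IL10/2-Trikine mice 646 to 747 (median 707), so that all 3 groups overlapped. The log2 change of mono-IL10 over PBS was 0.32 (SE 0.07, adjusted p = 0.0015), and the call stood in all 10 settings and all 15 fits with a mouse left out. For IL10/2-Trikine over PBS it was 0.20 (SE 0.07, adjusted p = 0.065), and it was called in 3 of 10 settings, DESeq2 (adjusted p = 0.041) among them, and without IL10/2-Trikine mouse 3 (0.035). Within clusters the mean was higher in 6 of 6 with either cytokine, and 2 clusters passed the threshold with mono-IL10 and 1 with IL10/2-Trikine.

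Cish fell in macrophages with IL10/2-Trikine, on fewer counts. Its levels were 37.2, 43.5, 46.8, 51.1 and 47.2 CPM in PBS mice and 33.3, 35.3, 20.7, 15.4 and 33.6 in IL10/2-Trikine mice, where a mouse gave 13 to 147 Cish UMIs. These groups did not overlap, and the mono-IL10 mice (30.2 to 45.1) lay across both. Cish fell by 0.55 on the log2 scale against PBS (SE 0.16, adjusted p = 0.026). The call was lost among cells with at least 2000 genes (log2 -0.21, adjusted p = 0.733), under another hashtag rule (log2 -0.40, adjusted p = 0.117) and without PBS mouse 2, 4 or 5 or IL10/2-Trikine mouse 3 (log2 -0.54 to -0.51, adjusted p up to 0.057), and the cluster means were lower in 6 of 6 clusters with none called of the 4 tested. With mono-IL10 against PBS the cluster means were lower in 6 of 6 as well, and the log2 change was -0.19 (SE 0.13, adjusted p = 0.325), which became -0.48 (adjusted p = 0.0059) under a looser marker check that keeps more macrophage clusters. The summed T and NK genes in macrophages were at 30.3 to 71.4 CPM with IL10/2-Trikine, 12.6 to 27.3 with PBS and 7.20 to 24.7 with mono-IL10, and their part in the Cish result was not tested.

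Summed over the macrophage class, Socs1 and Socs2 passed the threshold in none of the 3 comparisons. Socs1 was at 12.7 ± 4.21, 15.4 ± 4.95 and 11.6 ± 2.19 CPM in PBS, mono-IL10 and IL10/2-Trikine (n = 5 each). Socs2 was at 65.2 ± 10.7, 65.5 ± 1.95 and 90.4 ± 28.7, and its log2 change of IL10/2-Trikine over PBS was 0.41 (SE 0.15, adjusted p = 0.081), and it was called without IL10/2-Trikine mouse 1 (adjusted p = 0.0060) or PBS mouse 5 (0.0497), with DESeq2 (0.036) and under the other hashtag rule (0.017). Against mono-IL10 it was called without IL10/2-Trikine mouse 1 (log2 0.45, adjusted p = 0.043). Within clusters, Socs2 rose with IL10/2-Trikine against PBS in cluster 50 (log2 0.64, SE 0.19, adjusted p = 0.043) and in no other of the 6, with the mean higher in 4. For Socs1 the log2 change of mono-IL10 over PBS was 0.37 (SE 0.21, adjusted p = 0.223), and it was called without PBS mouse 4 (0.036) or mono-IL10 mouse 3 (0.030). Of the 5 genes, 2 were called in macrophages for mono-IL10 against PBS, where 26.5% of all 11196 genes tested were called, 1 for IL10/2-Trikine against PBS (15.2% of all genes) and 1 between the cytokines (10.7%). Counts of this size over 5 genes are near those shares, so the result lies in the single genes, not in the count.

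Of the other genes of the pathway, 14 of 57 tested from 5 lists rose in these macrophages with mono-IL10 over PBS and 2 fell. These are 28.1% of the lists, near the 26.5% over all genes. Among the cytokine receptor chains, 3 of 16 tested rose with mono-IL10 over PBS and none fell. They were Il4ra, the receptor chain for IL-4 and IL-13 (log2 1.17, adjusted p = 6.0e-10), the common gamma chain Il2rg (0.44) and the gp130 gene Il6st (0.36). Of 11 JAK and STAT genes, Jak3 (0.92, adjusted p = 1.3e-06), Stat3 (0.54, adjusted p = 2.8e-06) and Stat6 (0.33) rose and none fell. Of 14 other STAT targets 5 rose, among them the transcription factors Bcl6 (0.79), Nfil3 (0.79) and Prdm1 (0.52) and the survival gene Mcl1 (0.35). Within the wider SOCS and PIM family of 6 genes, Pim3 rose (0.36) and Socs6, another SOCS box gene, fell by 0.61 (adjusted p = 3.2e-06). The list medians were 0.08 for receptor chains, 0.08 for JAK and STAT genes, 0.19 for STAT targets and 0.03 for the family, against -0.02 over all genes tested.

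With IL10/2-Trikine against PBS, 11 genes of the 5 lists rose and 1 fell, or 21.1% of the 57 tested, beside 15.2% over all genes. Il4ra (log2 1.06, adjusted p = 1.1e-08), Jak3 (0.79) and Stat3 (0.33) rose and Socs6 fell by 0.77 (adjusted p = 3.8e-06), and these values rest on the same PBS mice as those of mono-IL10. Ccnd3 (0.97) and Myc (0.64), a cyclin and a growth regulator, rose against PBS and, by 0.64 and 0.59, against mono-IL10. The phosphatase gene Ptpn6 rose likewise (0.42 and 0.35). Bcl6 (0.43, adjusted p = 0.0061) and Nfil3 (0.49, adjusted p = 0.012) rose against PBS with IL10/2-Trikine too. Il2rb (1.28) and Il2ra (1.93), the IL-2 receptor beta and alpha chains, rose from 5.02 ± 1.67 and 1.73 ± 1.47 CPM in PBS to 11.05 ± 3.64 and 6.79 ± 3.67 (n = 5 each). At these low levels the summed T and NK genes given above moved the same way, and their part in this was not tested. Of the other inhibitors, Ptpn1 rose with both cytokines (0.24 and 0.31), Ptpn2 rose with mono-IL10 (0.40), and Pias2, a SUMO ligase that restrains STATs, fell by 0.29 with mono-IL10. Between the cytokines 5 list genes were higher with IL10/2-Trikine and 7 lower, or 21.1% of 57, beside 10.7% of all genes. Against mono-IL10, Il10ra, the IL-10 receptor alpha chain, fell by 0.27 (adjusted p = 0.024), and Ifnar2, Mcl1, Prdm1 and Ptpn2 fell by 0.40, 0.38, 0.37 and 0.33. Il2rb and Il2ra rose in this comparison as well (1.44 and 1.91).

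In dendritic cells Pim1 rose with IL10/2-Trikine. The class joined clusters resembling conventional dendritic cells of type 1, type 2 and mature dendritic cells. Its summed macrophage markers ranged from 3077 to 13637 CPM by mouse with wide overlap between the groups. Its cells were shallower with IL10/2-Trikine, with median UMIs per cell of 3380.5 to 4981 by mouse. The medians were 7031.5 to 9827 in PBS and 9209.5 to 11036.5 in mono-IL10. The part of depth in the dendritic cell results was not tested. Pim1 had 593, 613, 627, 620 and 655 CPM in PBS mice, 628, 676, 561, 604 and 601 in mono-IL10 mice and 723, 867, 811, 855 and 883 in IL10/2-Trikine mice. The lowest IL10/2-Trikine mouse exceeded the highest mouse of both other groups. The log2 change over PBS was 0.37 (SE 0.09, adjusted p = 0.032), and over mono-IL10 it was 0.30 (SE 0.09, adjusted p = 0.080). The call against PBS was lost in 5 of 10 settings, with the largest adjusted p of 0.684 under another hashtag rule. These settings included at least 2000 genes per cell (adjusted p = 0.235) and sums thinned to the shallowest mouse (0.085). The call was also lost in 8 of 15 fits with a mouse left out (up to 0.115), whereas the log2 value stayed between 0.25 and 0.44. In type 2 cells alone the IL10/2-Trikine mice, at 682 to 895, again lay above the PBS mice, at 533 to 657 (log2 0.38, SE 0.11, adjusted p = 0.061).

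Cish was lower in dendritic cells of IL10/2-Trikine mice without passing the threshold. Its values were 45.7, 65.6, 48.8, 38.6 and 19.8 CPM there, from 3 to 28 UMIs a mouse, against 73.8, 81.9, 75.4, 74.1 and 69.3 in PBS mice and 56.2, 103, 65.6, 67.1 and 91.7 in mono-IL10 mice. The IL10/2-Trikine and PBS mice did not overlap. The log2 change was -0.74 (SE 0.22, adjusted p = 0.117) against PBS and -0.83 (SE 0.23, adjusted p = 0.058) against mono-IL10, with adjusted p-values of 0.0069 and 0.0016 when no filter on low genes was used. Without that filter the calls over all genes also rose, from 78 to 258 against PBS and from 111 to 444 against mono-IL10. With mono-IL10 mouse 1 left out, the Cish change against mono-IL10 was called (0.026). Type 1 cells made up 21.6% of the class in PBS and 11.1% in IL10/2-Trikine, and mature cells 27% and 37.7%. In type 2 cells alone the IL10/2-Trikine mice (31.0 to 135 CPM) and PBS mice (96.1 to 116) overlapped, with a log2 change of -0.60 (SE 0.28, adjusted p = 0.349). In mature cells alone Cish was at 0 to 41.5 CPM in 4 IL10/2-Trikine mice, from 0 to 11 UMIs a mouse, against 31.0 to 94.8 in 5 PBS mice and 58.1 to 116 in 4 mono-IL10 mice. There the IL10/2-Trikine mice lay below the mono-IL10 mice without overlap, with log2 changes of -1.41 (SE 0.49, adjusted p = 0.501) against PBS and -1.68 (SE 0.52, adjusted p = 0.341) against mono-IL10. Of all 4130 genes tested in mature cells, 0 were called in either of these comparisons. Socs3 was at 166 ± 23.5, 192 ± 37.3 and 169 ± 13.9 in PBS, mono-IL10 and IL10/2-Trikine, with a log2 change of 0.30 for mono-IL10 (SE 0.12, adjusted p = 0.223). Of the 5 genes, 1 was called for IL10/2-Trikine against PBS, where 1.05% of 7404 genes were called. None was called by edgeR for mono-IL10 against PBS (3.2% of all genes; 1 gene at an unadjusted p under 0.05; 0 by DESeq2) or between the cytokines (1.5% of all genes; 3 at an unadjusted p under 0.05; 1 by DESeq2).

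In dendritic cells 4 of 53 tested genes of the pathway lists rose with mono-IL10 against PBS (7.55%, beside 3.2% of all genes), namely Jak3 (log2 1.03, adjusted p = 0.0013), Il4ra (0.67), Nfil3 (0.52) and Il7r (0.46), and none fell. With IL10/2-Trikine against PBS the cyclin gene Ccnd2 rose (0.48, adjusted p = 0.041), and against mono-IL10 Il7r fell by 0.97 (adjusted p = 0.0011).

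**Figure D3:**
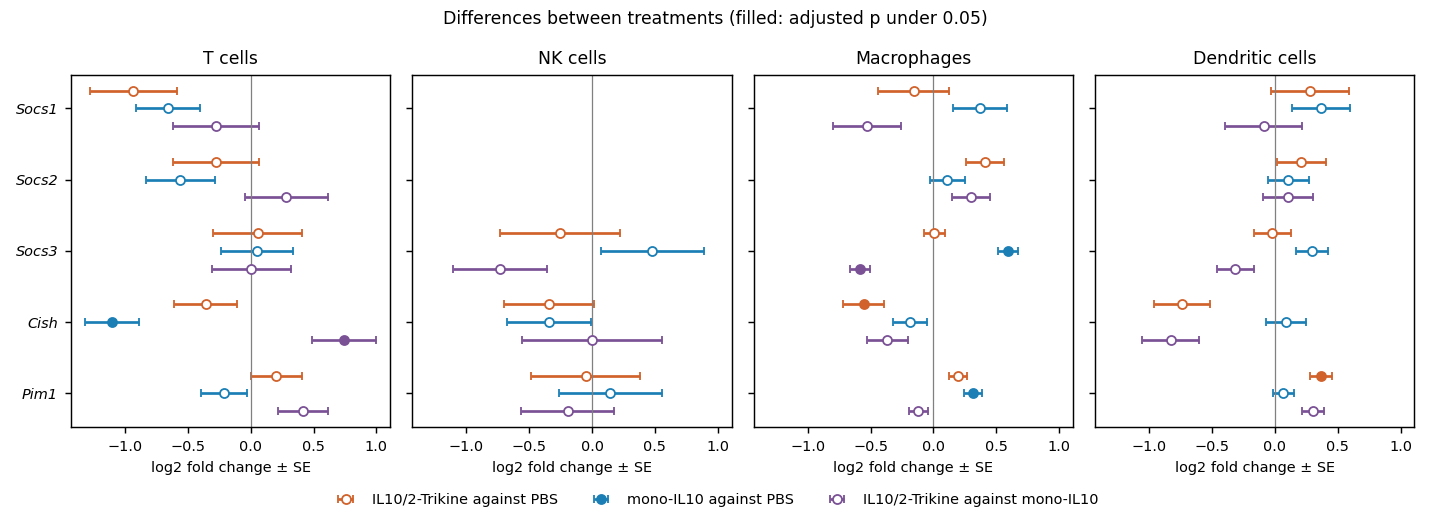
Log2 fold changes (horizontal axes) with their SE for the 5 genes in T cells, NK cells, macrophages and dendritic cells, for the 3 comparisons between treatments, from edgeR. Filled points passed an adjusted p of 0.05: Cish in T cells (-1.10 and 0.74), Socs3 (0.59 and -0.58), Cish (-0.55) and Pim1 (0.32) in macrophages, and Pim1 in dendritic cells (0.37). Socs1 and Socs2 in NK cells were too low to be tested.

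In T cells the leading change was a fall of Cish with mono-IL10. Its level was 136, 118, 167, 132 and 85.1 CPM in PBS mice, 62.0, 69.2, 42.1, 52.2 and 60.4 in mono-IL10 mice, and 63.2, 131, 69.5, 85.5 and 116 in IL10/2-Trikine mice. The mono-IL10 mice all lay below the PBS mice, and the IL10/2-Trikine mice reached into both groups. Cish fell by 1.10 on the log2 scale with mono-IL10 against PBS (SE 0.21, adjusted p = 0.0032), a ratio of means of 0.449. No alternative that tested it lost the call (6 settings, largest adjusted p = 0.019) and no fit with a mouse left out did (largest 0.020), although Cish was too low to be tested after sums were thinned to the shallowest mouse. DESeq2 is not among these 6 settings, because it gave Cish no adjusted p here (log2 -1.12, unadjusted p = 1.8e-05). Over T and NK cells together the log2 change was -0.87 (SE 0.19, adjusted p = 0.010), and after thinning it was -0.43 (adjusted p = 0.598). T cells of mono-IL10 mice were the deeper ones, with median UMIs per cell of 3361.5 to 4203.5 by mouse against 2599 to 2839 in PBS, and their summed list of 14 dissociation response genes ran from 1387 to 2371 CPM against 1936 to 3149. They also carried more of the T and NK cell markers, as given above. The part of depth, of dissociation and of these markers in the Cish result was not tested. Cells of naive_CD8T, a cluster low in Cish, were more frequent with mono-IL10 (27.1% against 12.4%), and without that cluster, a choice made after seeing the data, Cish fell by 0.95 (adjusted p = 0.019).

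With IL10/2-Trikine against PBS, the edgeR log2 change of Cish in T cells was -0.36 (SE 0.25, adjusted p = 0.410). Of the 5 IL10/2-Trikine mice, 0 lay above the PBS median. Between the cytokines, Cish in T cells was higher with IL10/2-Trikine than with mono-IL10 by 0.74 on the log2 scale (SE 0.25, adjusted p = 0.046). This call was lost in 4 of 7 settings and in 8 of 15 fits with a mouse left out. The log2 value was 1.11 (adjusted p = 0.056) without Cycling_T, which made up 51.9% of IL10/2-Trikine and 22.2% of mono-IL10 T cells, and 0.54 (adjusted p = 0.202) without naive_CD8T. With a mouse left out it ranged from 0.49 (adjusted p = 0.362, without IL10/2-Trikine mouse 2, the highest of its group) to 0.90.

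The annotated clusters gave the same order for Cish between PBS and mono-IL10. In the 7 clusters with at least 20 cells in both libraries, Cish was lower with mono-IL10 in 7, and the exact Poisson intervals at 95%, which cover counting error only, were apart in 1. That cluster was act_CD4T, with 224 CPM (162 to 302) in PBS and 94.0 (67.8 to 127) in mono-IL10. Treg, the regulatory T cells whose IL-2 receptor carries the alpha chain, had 210 (138 to 305) and 178 (116 to 261). Naive CD8 T cells had few counts at 61.8 (22.7 to 135) and 19.6 (9.78 to 35.1), from 6 and 11 UMIs. Tregs had the highest Pim1 of the clusters of this size, at 745 (603 to 910), 993 (838 to 1168) and 812 (601 to 1073) in PBS, mono-IL10 and IL10/2-Trikine. Their Socs2 was 217 (144 to 314), 274 (196 to 373) and 133 (57.2 to 261), which in PBS and mono-IL10 lay above every other cluster of this size. These values came from 24 to 52 Tregs a library, of several mice, and have no replicate test. Intervals of other genes were apart too, for Pim1 in 1 of 7 clusters with mono-IL10 against PBS. Between the cytokines they were apart in 2 of 5 clusters for Pim1 and in 1 of 5 for Socs2.

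**Figure D4:**
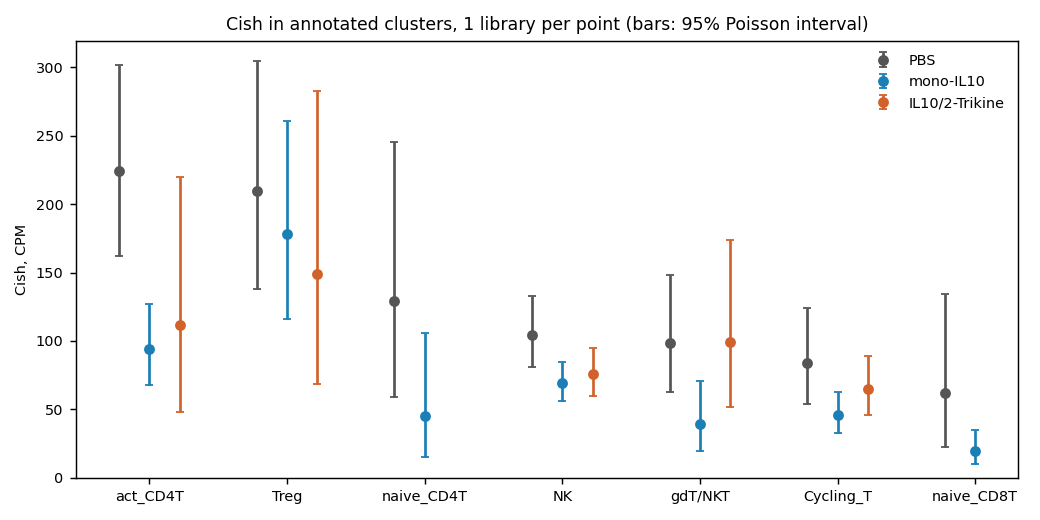
Cish in CPM (vertical axis, from 0) in annotated clusters with at least 20 cells in the PBS and mono-IL10 libraries (horizontal axis), with 1 point per library and bars for the 95% Poisson interval. The mono-IL10 point lies below the PBS point in all 7 clusters, and the bars are apart in act_CD4T only.

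Socs1 was lower in lymphocytes of IL10/2-Trikine mice. Over T and NK cells together it had 61.5 to 81.6 CPM in PBS mice (median 70.8), 40.9 to 62.1 in mono-IL10 mice (median 48.6) and 34.0 to 41.4 in IL10/2-Trikine mice (median 39.2). The IL10/2-Trikine and PBS mice did not overlap, and each IL10/2-Trikine mouse gave 5 to 16 Socs1 UMIs. NK cells, in which the PBS mean of Socs1 was lower than in T cells, were 28.4% of these cells in PBS and 54.8% in IL10/2-Trikine. Socs1 fell by 0.86 on the log2 scale against PBS (SE 0.24, adjusted p = 0.017), and the call was lost with DESeq2 (log2 -0.87, adjusted p = 0.056) and with no filter on low genes (log2 -0.86, adjusted p = 0.062). In T cells alone the log2 change was -0.93 (SE 0.34, adjusted p = 0.084), and the library level was lower in 5 of 5 annotated clusters with at least 20 cells, with no pair of intervals apart. The annotated T cells still carried more NK cell markers with IL10/2-Trikine (1800 to 2941 summed CPM, against 401 to 747 in PBS). The part of these markers in the T cell value was not tested. With mono-IL10 against PBS, the Socs1 log2 change was -0.48 (SE 0.20, adjusted p = 0.226) over T and NK cells. In T cells alone that change was -0.66 (SE 0.25, adjusted p = 0.185). Between the cytokines, Socs1 over T and NK cells differed by -0.38 (SE 0.23, adjusted p = 0.336). Dissociation response genes over T and NK cells were at 1962 to 3146 in PBS and 1843 to 2574 in IL10/2-Trikine mice. Their part in the Socs1 result was not tested.

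Socs2, Socs3 and Pim1 passed the threshold in T cells in no comparison. Socs3 had 63.7 ± 28.6, 67.0 ± 25.3 and 65.5 ± 16.9 CPM in PBS, mono-IL10 and IL10/2-Trikine, with log2 changes of 0.05 (SE 0.28) and 0.05 (SE 0.36) over PBS. Pim1 had 361 ± 83.4, 304 ± 76.9 and 410 ± 110 and Socs2 72.5 ± 20.9, 48.9 ± 14.0 and 65.5 ± 27.6 (n = 5 each). The log2 change of Pim1 between the cytokines was 0.42 (SE 0.20, adjusted p = 0.178), and it was called without mono-IL10 mouse 2 (0.041). Of the 5 genes, 1 was called in T cells for mono-IL10 against PBS, where 2.38% of 3189 genes were called, and 1 between the cytokines (12.8% of all genes). None was called for IL10/2-Trikine against PBS (9.19% of all genes; 1 gene at an unadjusted p under 0.05; 0 by DESeq2). Over T and NK cells together the counts were 1 for IL10/2-Trikine against PBS (10.2% of 4595 genes), 1 for mono-IL10 against PBS (1.55%) and 0 between the cytokines (9.66%; 0 at an unadjusted p under 0.05 and 0 by DESeq2).

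Over T and NK cells, 7 of 38 tested genes of the pathway lists were called with IL10/2-Trikine against PBS (18.4%, beside 10.2% of all genes). Of these, 3 of 9 JAK and STAT genes fell and none rose: Jak2 by 0.87 (adjusted p = 0.0014), Stat5b by 0.86 (0.021) and Stat5a by 0.80 (0.021). Of 10 receptor chains, Il2rb rose (log2 0.41, adjusted p = 0.0034), and Il7r fell by 1.40, Ifngr1 by 0.37 and Il21r by 0.59. These sums hold the higher share of NK cells given above, and in T cells alone Il7r fell by 0.88 (adjusted p = 0.033). The T cells of IL10/2-Trikine mice held fewer naive_CD8T cells (1.1% against 12.4% in PBS) and more NK cell markers, as given above. The part of these differences in the Il7r value was not tested. None of 6 other inhibitors, 11 other STAT targets and 2 further family members was called by edgeR (1, 2 and 0 had an unadjusted p under 0.05). Between the cytokines 7 of 38 were called as well over T and NK cells (18.4%, beside 9.66% of all genes). In T cells alone 12.5% of 32 tested list genes were called in this comparison, beside 12.8% of all genes. Il2rb rose against mono-IL10 (0.48, adjusted p = 0.00044), and Il7r fell by 1.20, Stat5b by 1.06, Il21r by 0.70, Jak2 by 0.55 and Ifngr1 by 0.39. The list medians against PBS were -0.40 for JAK and STAT genes and -0.39 for receptor chains, against -0.01 over all genes. With mono-IL10 against PBS, 0 of 38 genes tested from the 5 lists were called by edgeR in T and NK cells, and 7 had an unadjusted p under 0.05. In NK cells alone 0 of 23 were called in any comparison, with 3 to 5 at an unadjusted p under 0.05.

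In NK cells none of the 3 genes tested was called, and Socs1 and Socs2 were too low to be tested. Cish had 81.5 ± 31.5, 71.2 ± 15.9 and 65.5 ± 31.9 CPM in PBS (n = 5), mono-IL10 (n = 4, since 1 mouse had only 9 cells) and IL10/2-Trikine (n = 5). Pim1 had 217 ± 106, 252 ± 120 and 226 ± 81.8, and Socs3 66.4 ± 34.8, 85.4 ± 23.4 and 51.2 ± 36.1, with overlap between all groups. A mouse gave 1 to 26 Cish UMIs, and the Cish log2 changes over PBS, -0.34 for each cytokine, had SEs of 0.33 and 0.36. Socs2 was at 8.50 ± 15.1, 9.57 ± 2.83 and 19.9 ± 12.1, from 0 to 4 UMIs a mouse, and all 5 IL10/2-Trikine mice lay above the medians of both other groups while the mice overlapped. Socs1 was at 48.9 ± 29.98, 48.9 ± 8.68 and 35.9 ± 10.7. Of the 3 genes tested, 0 were called by edgeR or DESeq2 for IL10/2-Trikine against PBS (5.27% of 2355 genes), mono-IL10 against PBS (0.297%) and between the cytokines (3.4%), and 0 had an unadjusted p under 0.05.

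Whether a change differed between cell types of the same mice was tested with limma on the per-mouse difference of log2 values. For Cish with mono-IL10 against PBS, NK cells differed from T cells by 0.96 (SE 0.43, adjusted p = 0.693) and macrophages from T and NK cells by 0.57 (SE 0.27, adjusted p = 0.303). For Socs3 the macrophage change differed from that in T and NK cells by 0.22 (SE 0.39, adjusted p = 0.854). Of 24 such tests, 6 had an unadjusted p under 0.05 and 0 passed after adjustment over all genes, with a smallest adjusted p of 0.103, so none of these changes was shown to be particular to a cell type. Over all genes, the tests of macrophages against T and NK cells called 7.8% for IL10/2-Trikine against PBS, 2.59% for mono-IL10 against PBS and 3.91% between the cytokines, and those of NK against T cells called 0.0442%, 0.177% and 0.0884%.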

How the data were processed

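The libraries were made with the 10x Genomics GEM-X 5′ kit, and tumors had been dissociated at 37 °C. The deposited matrices hold raw UMI counts per gene and barcode, made by the authors with Cell Ranger, with GRCm39, Seurat 5.1.0 and DESeq2 1.46.0 named in the submitters' processing notes. The deposited annotation gives a cell's mouse and cluster (other, non-numeric values) for T and NK cells. It also lists 7858 cells of a group that was not analysed here. The feature named TRP1_Low_beta was left out of all sums.

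The genes and all lists were chosen with earlier results of these data known. The study's filter was applied, a minimum of 1000 genes per barcode and a maximum of 10% of UMIs from mitochondrial genes. Mice were called with HTODemux (Seurat 5.3.0, quantile 0.99), which gave the deposited call in 97.1% to 98.6% of annotated cells. Barcodes with more than 1 hashtag (8.64% to 13.3%) were left out, and doublets within a mouse were not removed. Barcodes without a hashtag call were 21.4%, 17.3% and 30.2% in PBS, mono-IL10 and IL10/2-Trikine, and entered no sum per mouse. Of the annotated cells, 348 of 516, 635 of 843 and 400 of 725 had a mouse in these groups. Cells were clustered on 2000 variable genes without the 5 genes described (40 components, 60 k-means clusters, scikit-learn 1.9.0). A cluster was named from marker lists when its leading class had a score of at least 0.25 and at least 3 markers, and no other lineage exceeded 0.2 of that score. Clusters whose 10 leading genes held more markers of another class stayed unnamed, a check tightened after the clusters were seen.

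UMIs were summed per mouse (at least 10 cells) and tested with edgeR 4.0.16 (quasi-likelihood, TMM, filterByExpr, 3 groups in 1 fit), with Benjamini-Hochberg adjustment over all genes tested and a threshold of 0.05. SEs were derived from the log2 change and its F statistic. All p-values are two-sided, and measure the spread between mice of pooled libraries. Differences of changes used limma 3.58.1 (prior count 2). All 5 genes were named, and list genes were drawn from the up to 4 called genes of smallest p per list and comparison. 1 list result is not reported here. Alternatives were DESeq2 1.42.0, RLE size factors, no filter on low counts, 2 groups per fit, thinned sums, at least 20 cells, at least 2000 genes, 40 clusters on 30 components, another hashtag rule (at least 80% of at least 20 hashtag UMIs), no Cycling_T cells and each mouse left out. A naming ratio of 0.25, the looser marker check, no naive_CD8T cells and fits within clusters were chosen after seeing the data. The fits were also run on simulated data that held no library effect, so these runs cannot show how such an effect moves them.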

Additional observations from a re-analysis of the deposited data

Results flagged for a closer look

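In 75 groups of 4 or 5 mice (5 genes, 5 cell classes and 3 treatments), 4 had a mouse far from the others by Dixon's criterion, and chance gives about 1 in 20. Socs3 in T cells was 111 CPM in mono-IL10 mouse 2, from 40 UMIs, against 45.4 to 63.2 in the other mice. Socs3 in T cells was 94.7 in IL10/2-Trikine mouse 1, from 12 UMIs, against 52.1 to 64.1. Socs3 in dendritic cells was 207 in PBS mouse 2, from 371 UMIs, against 146 to 161. Socs2 in NK cells was 34.7 in PBS mouse 2, from 4 UMIs, against 0 to 7.77.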

How the results depend on the processing

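The calls of Socs3 and Pim1 in macrophages with mono-IL10 and of Socs3 between the cytokines held in every setting run, and no value changed direction where it had been called. The number of the 5 genes called moved as follows. In macrophages, IL10/2-Trikine against PBS called 3 with DESeq2, 2 with 40 clusters, 2 with a naming ratio of 0.25 and 0 with at least 2000 genes, and 0 to 2 with a mouse left out, against 1; between the cytokines a left-out mouse gave 1 to 2. In dendritic cells, IL10/2-Trikine against PBS called 0 with thinned sums, at least 2000 genes, 40 clusters or the other hashtag rule, and 0 to 1 with a mouse left out, and the cytokine comparison called 1 with DESeq2 or no filter and 0 to 1 with a mouse left out. In T cells, the cytokine comparison called 0 with DESeq2, no filter, thinned sums, no Cycling_T or no naive_CD8T cells and 0 to 2 with a mouse left out, and mono-IL10 against PBS called 0 with thinned sums. In T and NK cells, IL10/2-Trikine against PBS called 0 with DESeq2, no filter or thinned sums, and mono-IL10 against PBS called 0 with thinned sums. Thinning leaves fewer genes to test; for the other settings the cause was not tested. With the looser marker check, Cish in macrophages was also called for mono-IL10 against PBS (log2 -0.48, adjusted p = 0.0059, against -0.19 and 0.325). DESeq2 gave Cish no adjusted p for mono-IL10 against PBS in T cells (log2 -1.12, unadjusted p = 1.8e-05) or in T and NK cells (-0.87, 0.00017). Counts over all genes moved by more than 1.5 times most often with thinning (macrophages, mono-IL10 against PBS, 923 for 2966; IL10/2-Trikine against PBS, 792 for 1698) and in dendritic cells (IL10/2-Trikine against PBS, 1 with the other hashtag rule and 258 with no filter, for 78). No paired analysis was possible because the labels give no replicate numbers and a hashtag number only names a mouse within its library. Lymphocyte sums were as low as 33913 UMIs a mouse, and Socs1 and Socs2 could not be tested in NK cells.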

Other observations

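Cells outside the comparisons, and subsets of the dendritic class, carried these genes at other levels. Values are given here for the PBS, mono-IL10 and IL10/2-Trikine libraries in that order, with no test on the library values. Neutrophil-like cells had the highest Pim1 of any class named, at 1788, 1839 and 2352 CPM from 347, 606 and 33 cells, and Socs3 at 368, 430 and 430. Endothelial-like cells, which the CD45 selection should have removed, had Socs3 at 325, 290 and 347, close to the macrophage levels in PBS. Mast-like cells had the highest Cish of these classes, at 199.8, 227 and 124, and Socs2 at 241, 184 and 252, from 54, 48 and 55 cells. Within the compared dendritic class, mature dendritic-like cells had the highest Socs2 of any class named, at 288, 298 and 282. Their Socs1 was 50.8, 63.7 and 45.0, above type 2 conventional dendritic cells at 15.4, 24.8 and 20.2. Fitted by mouse in mature cells, neither gene passed the threshold in any comparison. Of all 4130 genes tested there, 0 were called for IL10/2-Trikine against PBS, 5 for mono-IL10 against PBS and 0 between the cytokines.

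Over 44 mouse profiles (T cells, NK cells and macrophages of single mice) and 11288 genes, the genes with the most similar pattern by Pearson's r of log2 CPM were Cdkn1a (0.94), Ctsh (0.93) and Gla (0.93) for Socs3, and Nfkbiz (0.89), Dusp1 (0.89) and Nfkbia (0.89) for Pim1. They were Hsp90ab1 (0.86), Plcb4 (0.86) and Esyt2 (0.85) for Cish, Jak1 (0.92), Rnf157 (0.92) and H2-Q7 (0.92) for Socs1, and Ptprs (0.85), Tnfaip8 (0.84) and Vim (0.83) for Socs2. The profiles share mice, libraries and depth within a cell class, so these values describe likeness and carry no p.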
